A study of Sus scrofa with 61 samples.

Results

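The genes described here encode the extracellular matrix of the liver and the integrins that bind it. They were picked by gene symbol: collagen chains, laminin chains, integrin chains, tissue inhibitors of metalloproteinases (TIMPs), matrix metalloproteinases (MMPs, without MMP7) and FN1, SPARC, LUM, DCN, BGN and ELN. This set was chosen with earlier results of these data known. Of 6765 gene symbols on the Affymetrix GeneChip Porcine Genome Array, 47 fell under this choice, and they were covered by 86 probe-sets. For 24 of the 47 genes more than 1 probe-set was present, and the brightest by mean log2 signal over all arrays stood for the gene. No probe-set carried COL1A1, COL4A1, COL6A1, COL14A1, COL18A1, LAMA4, ITGA1 or ELN as its only symbol, so these genes were not analysed here. ITGB1BP2 came in through its symbol, although it encodes melusin, a partner of an integrin and not an integrin chain.

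The matrix of the liver is a thin network. Collagen fibrils and type VI collagen lie around the portal tracts and central veins, while type IV collagen, laminins and fibronectin line vessels, bile ducts and, loosely, the sinusoids. Stellate cells and portal fibroblasts make much of the collagen, endothelial cells make much of the basement membrane, and hepatocytes secrete plasma fibronectin in large amounts. Integrins are pairs of an alpha and a beta chain that tie cells to these proteins. MMPs cut matrix proteins, and TIMPs inhibit the MMPs.

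Liver RNA came from German Landrace offspring whose mothers were fed the low protein (LP) diet during gestation, with 1 animal per array. At 94 dpc (days post conception) there were 16 fetuses, at 1 dpn (days post natum) 14 piglets, at 28 dpn 15 juveniles and at 188 dpn 16 young adults. All 61 animals shared the gestational LP diet, and offspring of the adequate protein (AP) diet were not analysed here, so nothing below separates diet from age. The fetuses were taken by Caesarean section and the other animals were farrowed, piglets kept beyond birth were reared by foster sows on the adequate diet, male piglets were castrated, and pigs at 28 dpn and 188 dpn were fasted overnight. Stage cannot be told apart from mode of delivery between 94 dpc and 1 dpn, or from fasting between 1 dpn and 28 dpn. Weaning and the change of feed fall between 28 dpn and 188 dpn, and the comparison of 94 dpc with 188 dpn holds all of these. The fetuses came from a separate experiment with other sows, and fetuses, newborns and older pigs were killed in different ways. Siblings of unlike weight were chosen at 94 dpc and 1 dpn only. The step from 94 dpc to 1 dpn spans late gestation and birth, so its changes cannot be placed at birth. The study chose pairs of siblings and divided the piglets of a litter among the postnatal stages. The labels identify neither siblings nor litters, so animals were treated as independent and p-values may be off for that reason.

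Values are log2 signal intensities. The stages were compared in limma fits over all probe-sets tested, as the later stage minus the earlier one: 94 dpc to 1 dpn (period I), 1 dpn to 28 dpn (period II), 28 dpn to 188 dpn (period III) and 94 dpc to 188 dpn (the net change, which shares its animals with periods I and III). Tested were probe-sets that exceeded the array median in 50% or more of the animals at either stage and had an SD above 0.25 over both, and those with P and q (Storey) of 0.05 or less were called higher or lower. The authors' scaling fixes a trimmed mean and not the array median, whose median over the animals of a stage went from 167 in fetuses through 150.4 and 118 to 102 in young adults. Stage means of the 3' minus 5' difference for beta-actin, a sign of RNA integrity and labelling, were 2.27, 1.78, 3.94 and 4.03 on the log2 scale in order of age. For GAPDH they were 1.05, 0.39, 0.79 and 0.64, highest in the fetuses, and for EF1a -0.02, -0.14, 0.39 and 0.56. The part of these differences in the changes below was not tested. All 14 hepatocyte markers on the array had a mean above the array median at each of the 4 stages, which checks the label liver.

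Of the 47 genes, 27 had a mean above the array median at 1 or more stages, 22 of them at all 4 stages. The other 20 lay below it throughout, with stage means between 1.91 and 7.02. These were MMP1, MMP3, MMP9, MMP13, MMP20, TIMP4, COL5A2, COL5A3, COL7A1, COL8A1, COL10A1, COL11A1, COL17A1, LUM, ITGA2, ITGA6, ITGA8, ITGAM, ITGB7 and ITGB1BP2. None of these 20 was tested in any period. Among the 27, the highest stage mean fell at 94 dpc in 9 genes, at 1 dpn in 3, at 28 dpn in 9 and at 188 dpn in 6. These counts depend on scaling, because the array median fell with age. Relative to the array median, COL5A1 was highest at 28 dpn (1.94 against 1.75 at 94 dpc). DCN (2.98 against 2.49) and ITGA2B (1.46 against 0.87) were then highest at 188 dpn, while COL15A1 stayed highest at 94 dpc (0.43). The counts were not repeated on that scale.

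**Figure D1:**
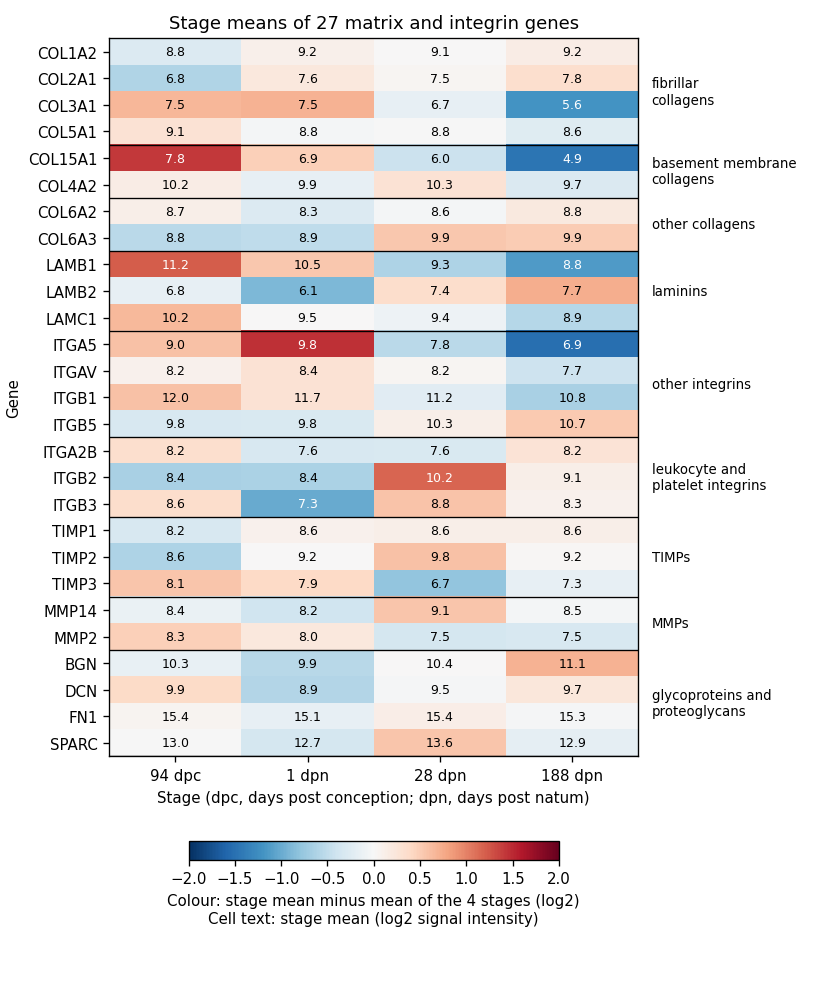
Stage means of the 27 genes whose mean lay above the array median at 1 or more stages (rows, by role) at the 4 stages (columns). Cell text gives the mean log2 signal intensity and colour its difference from the mean of the 4 stages; LAMB1 and ITGB1 were highest in the fetus and lowest in the young adult, while ITGB2 was highest at 28 dpn with a mean of 10.2.

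In period I, 26 of the 47 genes were tested, 4 were called higher and 12 lower, against 26.1% and 41.6% of all 12227 probe-sets tested. Quantile normalization gave 6 higher and 8 lower, and subtraction of array medians 6 and 6. Over all probe-sets the share of calls that were higher was 38.5%, 47.2% and 50.9% under the 3 scalings. In period II, 24 were tested, 10 were called higher and 6 lower, against 29% and 41.4% of 12114 probe-sets. The split was 12 and 5 after quantile normalization and 16 and 4 with array medians subtracted, and the share of higher calls over all probe-sets was 41.2%, 51.3% and 67.6%. In period II more of these genes were thus called higher than lower under each of the 3 scalings, though not without the intensity filter, which gave 10 and 13. With neither the intensity nor the SD filter it was 11 and 13 of 47, against 16.5% and 33.3% of all probe-sets that are not controls.

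In period III, 23 genes were tested, 5 were called higher and 12 lower, against 18.3% and 35.7% of 10959 probe-sets. The split was 8 and 9 after quantile normalization and 9 and 9 with array medians subtracted, and the share of higher calls over all probe-sets was 33.9%, 49.8% and 59.5%. For the net change, 26 genes were tested, 9 were called higher and 11 lower, against 28.6% and 55% of 12921 probe-sets. Quantile normalization gave 12 and 7 and subtraction of array medians 16 and 6, with 34.2%, 49.5% and 61.3% of all calls higher. The excess of lower over higher calls among these genes in the net change was therefore turned by both other scalings.

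Over all 47 genes, tested or not, the median log2 change was -0.13 in period I, -0.24 in period II, -0.16 in period III and -0.33 net. The median over all probe-sets that are not controls was -0.09, -0.25, -0.10 and -0.44. The median over the tested probe-sets, which the other scalings move by over 0.1, was -0.16, -0.14, -0.14 and -0.43, and a change can be read against it. Values that did not overlap between stages were found in 0 genes in period I (7.72% of the probe-sets tested), 2 in period II (9.91%), 0 in period III (1.37%) and 4 in the net change (26.4%). These were ITGB2 (higher) and ITGA5 (lower) in period II, and LAMB1, ITGA5, ITGB1 and LAMC1 (all lower) in the net change.

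The laminin chains diverged after 1 dpn. LAMB1 and LAMC1, a beta and a gamma chain that join in the laminins of the embryonic and vascular basement membrane, fell from fetus to young adult, while LAMB2, the beta chain of mature basement membranes, was higher in the young adult. LAMB1 ran from 10.72 to 11.43 around a median of 11.22 at 94 dpc, from 10.04 to 11.12 around 10.45 at 1 dpn, from 8.41 to 10.12 around 9.36 at 28 dpn and from 8.11 to 10.18 around 8.87 at 188 dpn. Every fetus lay above every young adult. The fall of LAMB1 was called in each period, by -0.68 (SE 0.10, q = 7.34e-08), -1.15 (SE 0.15, q = 1.54e-08) and -0.52 (SE 0.17, q = 0.00404), and its net change was -2.35 (SE 0.14, q = 6.57e-18), or 5.11-fold lower. A second probe-set of LAMB1 was called lower in periods I and II and net, with a net change of -3.26.

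LAMC1 ran from 9.99 to 10.42 around 10.17 at 94 dpc, from 9.04 to 10.28 around 9.58 at 1 dpn, from 9.01 to 10.29 around 9.34 at 28 dpn and from 8.48 to 9.40 around 9.02 at 188 dpn. The fetuses were tightly grouped and again above all young adults, while the stages between overlapped with both sides. The overlap with the fetuses came from 1 newborn (10.28) and 1 juvenile (10.29), both on arrays with outlying 3' minus 5' values. The next highest values at these stages, 9.79 and 9.915, lay below every fetus. LAMC1 was called lower in period I (-0.64, SE 0.10, q = 2.89e-07) and period III (-0.48, SE 0.12, q = 0.000393), had a change of -0.11 (SE 0.13) in period II that did not pass, and a net change of -1.23 (SE 0.09, q = 7.77e-16). With its probe-sets averaged, LAMC1 changed by -0.05 in period I, which was not called, and by -0.89 in period III, where it did not pass the filters and was not tested.

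LAMB2 was weaker. It ran from 4.46 to 7.77 around 7.03 at 94 dpc, from 4.43 to 7.34 around 6.31 at 1 dpn, from 6.57 to 8.40 around 7.32 at 28 dpn and from 6.65 to 8.17 around 7.85 at 188 dpn. It was not tested in period I, where its change was -0.74 (SE 0.32). LAMB2 passed the filter through 28 dpn alone in period II and through 188 dpn alone in the net change. It was called higher in period II (1.25, SE 0.28, q = 4.91e-05), period III (0.38, SE 0.16, q = 0.0126) and net (0.89, SE 0.21, q = 2.32e-05). With each signal below the array median raised to that median, the rise of LAMB2 in period II came to 0.17 and was not called. The difference LAMB1 minus LAMB2 within each array was picked after the values were seen and is given with no test. It lay between 3.04 and 6.82 around a median of 4.19 in the fetuses. In the newborns it lay between 2.95 and 6.26 around 4.08, and in the young adults between 0.22 and 3.53 around 0.96. A shift of such a difference between stages shows that the 2 chains changed unequally, not how abundant they were.

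**Figure D2:**
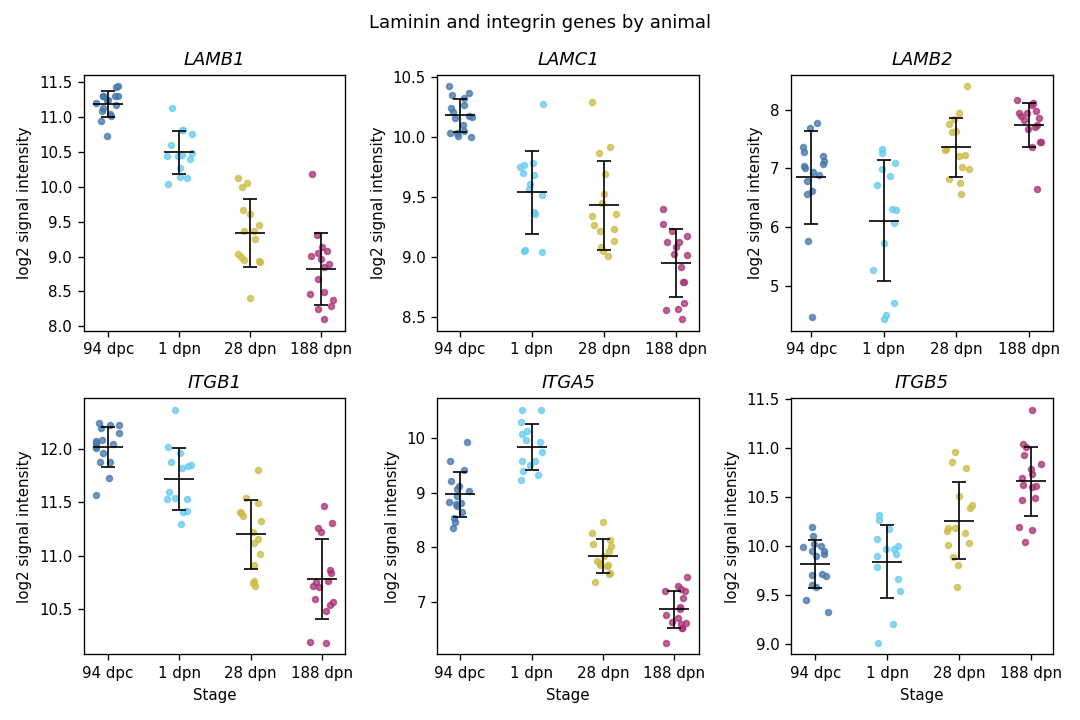
Log2 signal intensity of 3 laminin and 3 integrin genes at the 4 stages, with 1 point per animal (16, 14, 15 and 16 animals) and bars for mean and SD. LAMB1, LAMC1, ITGB1 and ITGA5 were lower in every young adult than in any fetus, whereas LAMB2 and ITGB5 had their highest mean at 188 dpn.

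Among the integrins of parenchymal, endothelial and mesenchymal cells, ITGB1 and ITGA5 were called in all 4 comparisons and ITGB5 in 3. ITGB1, the beta chain shared by most receptors for collagen, laminin and fibronectin, ran from 11.57 to 12.24 around a median of 12.05 at 94 dpc, from 11.29 to 12.37 around 11.71 at 1 dpn, from 10.72 to 11.80 around 11.22 at 28 dpn and from 10.18 to 11.46 around 10.74 at 188 dpn. Adjacent stages overlapped, the first and the last did not. ITGB1 was called lower in period I (-0.30, SE 0.10, q = 0.00131), period II (-0.52, SE 0.12, q = 4.95e-05) and period III (-0.42, SE 0.13, q = 0.00195), with a net change of -1.25 (SE 0.11, q = 1.91e-13). With array medians subtracted the direction held throughout and the calls of ITGB1 in periods I and II were lost.

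ITGA5, the alpha chain that pairs with ITGB1 in the classical fibronectin receptor, did not follow its partner in period I. It ran from 8.35 to 9.94 around 8.88 at 94 dpc, from 9.22 to 10.51 around 9.84 at 1 dpn, from 7.36 to 8.46 around 7.74 at 28 dpn and from 6.25 to 7.46 around 6.80 at 188 dpn. The newborns were highest, and each of them lay above each juvenile pig. ITGA5 was called higher in period I (0.87, SE 0.15, q = 1.94e-06), lower in period II (-2.003, SE 0.14, q = 2.83e-14), or 4.01-fold, and lower in period III (-0.98, SE 0.12, q = 2.29e-08), with a net change of -2.10 (SE 0.14, q = 1.11e-16). A second probe-set of ITGA5 was called in the same directions, with 1.31 in period I and -2.39 in period II. After averaging of its probe-sets ITGA5 did not pass the filters in period III and was not tested there, at a change of -1.03.

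ITGB5, a beta chain that pairs with ITGAV and binds vitronectin, moved the other way. It ran from 9.32 to 10.19 around 9.91 at 94 dpc, from 9.01 to 10.31 around 9.94 at 1 dpn, from 9.58 to 10.96 around 10.18 at 28 dpn and from 10.03 to 11.38 around 10.65 at 188 dpn. Its change of 0.02 (SE 0.12) in period I did not pass, and it was called higher in period II (0.42, SE 0.14, q = 0.00193), period III (0.40, SE 0.13, q = 0.00392) and net (0.84, SE 0.11, q = 1.57e-09). The within-array difference ITGB1 minus ITGB5, also picked after the values were seen and not tested, lay between 1.71 and 2.91 in the fetuses and between -0.90 and 1.43 in the young adults.

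ITGAV, the alpha chain of several receptors for vitronectin and latent TGF-beta, had stage means of 8.23 (SD 0.43), 8.43 (SD 0.49), 8.19 (SD 0.47) and 7.74 (SD 0.61). It was called lower in period III (-0.45, SE 0.19, q = 0.014) and net (-0.50, SE 0.18, q = 0.00112), but both calls were lost under the other scalings and the net change turned to 0.07 and 0.15. ITGA2, ITGA6 and ITGA8, alpha chains of receptors for collagen, laminin and other ligands, stayed below the array median.

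The integrins of blood cells had courses of their own. ITGB2, the common beta chain of the leukocyte integrins, ran from 7.64 to 8.89 around 8.41 at 94 dpc, from 7.91 to 9.02 around 8.37 at 1 dpn, from 9.58 to 10.73 around 10.05 at 28 dpn and from 8.10 to 9.88 around 9.19 at 188 dpn. All juvenile pigs exceeded all newborns and all fetuses. ITGB2 had a change of 0.01 (SE 0.13) in period I, rose by 1.81 (SE 0.13, q = 3.86e-14) in period II, or 3.497-fold, and fell by 1.05 (SE 0.13, q = 5.5e-08) in period III, leaving a net rise of 0.77 (SE 0.14, q = 7.32e-07). Leukocyte and macrophage markers moved with it in periods II and III. In period II 9 of 11 tested markers were called higher and 0 lower, against 29% and 41.4% of all probe-sets tested. In period III 0 were called higher and 10 of 12 lower, against 18.3% and 35.7%. In period I 2 of 9 were called higher and 1 lower, against 26.1% and 41.6%. The summed signal of the 15 markers on the array lay between 5930 and 10705 at 94 dpc and 10200 and 21273 at 1 dpn. It lay between 20212 and 32104 at 28 dpn and 11461 and 21834 at 188 dpn. Its stage median rose from 9043 to 14287 in period I, where ITGB2 changed by 0.01. Of the 15 markers, 9 to 11 had a mean above the array median at a stage. In whole liver, a change in the number of cells of a type and a change in RNA per cell cannot be told apart, here and for the genes below.

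ITGA2B and ITGB3, which form the fibrinogen receptor of platelets and megakaryocytes, both fell in period I. ITGA2B had stage means of 8.25 (SD 0.42), 7.60 (SD 0.51), 7.62 (SD 0.47) and 8.19 (SD 0.34), and it was called lower in period I (-0.65, SE 0.17, q = 0.000206) and higher in period III (0.57, SE 0.14, q = 0.000436). ITGB3, which also pairs with ITGAV on other cells, ran from 7.63 to 9.54 around 8.50 at 94 dpc, from 6.02 to 7.92 around 7.34 at 1 dpn, from 7.59 to 10.13 around 9.00 at 28 dpn and from 7.32 to 9.12 around 8.41 at 188 dpn. The newborns were lowest. ITGB3 was called lower in period I (-1.35, SE 0.18, q = 4.05e-08), higher in period II (1.57, SE 0.22, q = 5.73e-08) and lower in period III (-0.49, SE 0.21, q = 0.0146), where the call was lost under both other scalings and also without the least correlated array of each stage. In period I 3 of the 4 megakaryocyte and platelet markers on the array, PPBP, THBS1 and GP9, were called lower, against 41.6% of all probe-sets tested, and 0 higher. The summed signal of the 4 markers fell from between 831 and 2646 to between 469 and 1095. In period II 1 of 3 tested markers, THBS1, was called higher, against 29% of all probe-sets tested. The summed signal of the 4 markers lay between 525 and 884 at 28 dpn. The part of these markers in the changes was not tested.

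**Figure D3:**
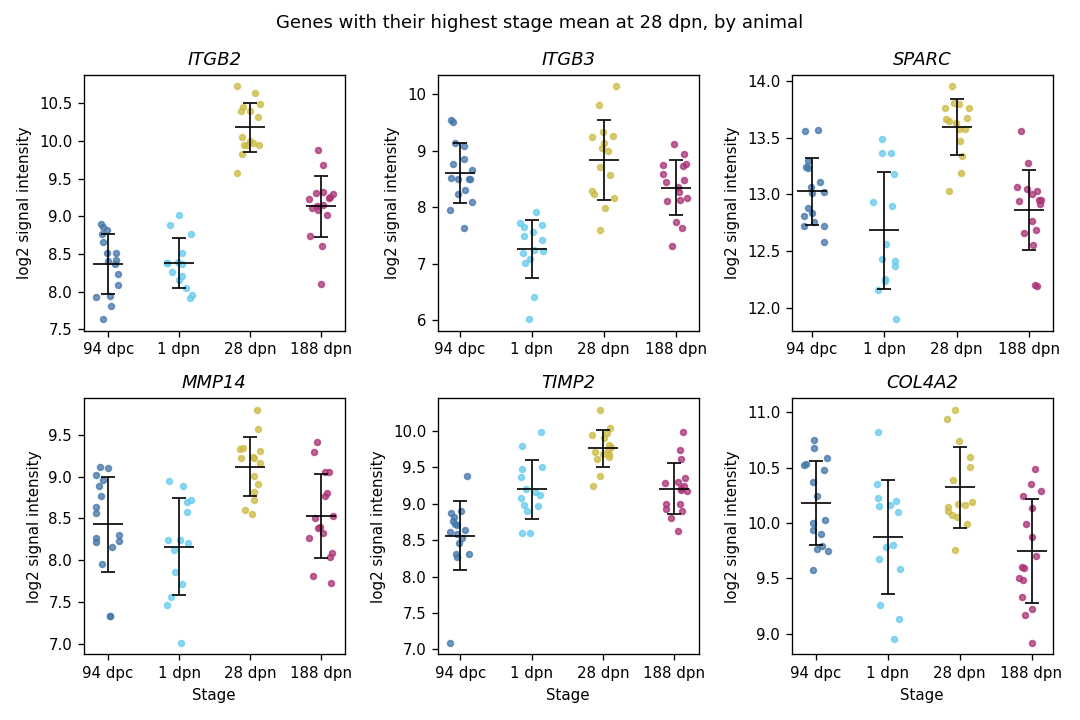
Log2 signal intensity of 6 genes that had their highest stage mean at 28 dpn, with 1 point per animal (16, 14, 15 and 16 animals at the 4 stages) and bars for mean and SD. ITGB2 did not overlap between 1 dpn and 28 dpn, and the other genes overlapped in part, with stage means of SPARC at 12.68 and 13.59 at these stages.

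The fibrillar collagens did not move as 1 group. COL1A2, a chain of type I collagen, the main fibril of scars and portal tracts, ran from 8.05 to 9.36 around 8.85 at 94 dpc, from 8.88 to 9.73 around 9.08 at 1 dpn, from 8.67 to 9.48 around 9.14 at 28 dpn and from 8.78 to 9.89 around 9.22 at 188 dpn. The fetuses were lowest and the 3 later stages lay close together. COL1A2 was called higher in period I (0.37, SE 0.12, q = 0.00183) and net (0.42, SE 0.12, q = 0.000123), and its SD was at or below 0.25 in periods II and III, where it was not tested. With the mean of its 2 probe-sets, of which the dimmer one lay below the array median on all arrays, the net change turned to -0.07 and was not called.

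COL3A1, the chain of type III collagen, which mixes with type I in thin fibrils, ran from 4.42 to 8.25 around 7.78 at 94 dpc, from 6.86 to 8.06 around 7.49 at 1 dpn, from 5.13 to 7.38 around 6.78 at 28 dpn and from 3.05 to 7.13 around 5.86 at 188 dpn. Its signal was near the array median in fetuses and newborns and mostly below it later. COL3A1 was called lower in period II (-0.86, SE 0.19, q = 4.9e-05) and net (-1.87, SE 0.32, q = 2.38e-07), passed the filter through the earlier stage alone in both, and had a change of 0.02 (SE 0.25) in period I. Raising signals to the array median where they lay under it left a net change of -0.997 for COL3A1. COL5A1, which sets fibril diameter, had stage means of 9.13 (SD 0.32), 8.79 (SD 0.29), 8.83 (SD 0.30) and 8.58 (SD 0.35). It was called lower in period I (-0.34, SE 0.12, q = 0.00239), period III (-0.24, SE 0.12, q = 0.0253) and net (-0.55, SE 0.12, q = 9.87e-06), but all 3 calls were lost under both other scalings, and with array medians subtracted the net change turned to 0.11. COL2A1, best known from cartilage, was called higher in period I (0.81, SE 0.26, q = 0.00168) and net (0.94, SE 0.23, q = 3.67e-05), at stage means between 6.83 and 7.77 that were close to the array median, and its call in period I was lost with that median as floor.

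The basement membrane and beaded collagens diverged as well. COL15A1, a collagen of the zone under the endothelium, ran from 6.43 to 8.95 around 7.96 at 94 dpc, from 3.92 to 8.22 around 7.15 at 1 dpn, from 1.65 to 7.12 around 6.33 at 28 dpn and from 2.74 to 6.89 around 5.29 at 188 dpn. It was called lower in period I (-0.94, SE 0.30, q = 0.00154) and net (-2.88, SE 0.35, q = 3.31e-10), both through the filter of the fetal stage alone, and was not tested in periods II and III. The net change of COL15A1 was -1.18 with the array median as floor. COL4A2, a chain of the type IV collagen network, ran from 9.57 to 10.75 around 10.13 at 94 dpc, from 8.95 to 10.82 around 9.95 at 1 dpn, from 9.75 to 11.02 around 10.17 at 28 dpn and from 8.92 to 10.48 around 9.65 at 188 dpn. Its stages overlapped throughout. It was called higher in period II (0.45, SE 0.16, q = 0.00262) and lower in period III (-0.58, SE 0.15, q = 0.000573), and its net call (-0.44, SE 0.15, q = 0.000709) was lost under both other scalings, with 0.21 when array medians were subtracted.

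COL6A3, a chain of the beaded type VI collagen around cells and fibres, ran from 8.16 to 9.51 around 8.81 at 94 dpc, from 7.55 to 10.48 around 8.66 at 1 dpn, from 8.99 to 10.77 around 9.84 at 28 dpn and from 8.94 to 10.37 around 10.04 at 188 dpn. It was called higher in period II (1.04, SE 0.22, q = 2.69e-05) and net (1.04, SE 0.14, q = 2.71e-09), and its changes of 0.03 (SE 0.20) in period I and -0.03 (SE 0.16) in period III did not pass. COL6A2, another chain of the same collagen, was called lower in period I (-0.38, SE 0.14, q = 0.00377), a call lost under both other scalings, and had changes of 0.24 (SE 0.13), 0.23 (SE 0.14) and 0.09 (SE 0.14) in periods II and III and net that did not pass. Markers of stellate cells and fibroblasts were called higher and lower in 3 and 4 of 8 tested in period I, 4 and 2 of 10 in period II, 6 and 0 of 11 in period III and 5 and 1 of 11 net. The shares over all probe-sets tested were 26.1% and 41.6%, 29% and 41.4%, 18.3% and 35.7%, and 28.6% and 55% in the same order. The summed signal of the 12 markers on the array lay between 10015 and 19964, 7132 and 17541, 9706 and 17838, and 14470 and 23335 at the 4 stages in order, with 7 to 11 of the 12 above the array median at a stage. Their part in the collagen changes was not tested.

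**Figure D4:**
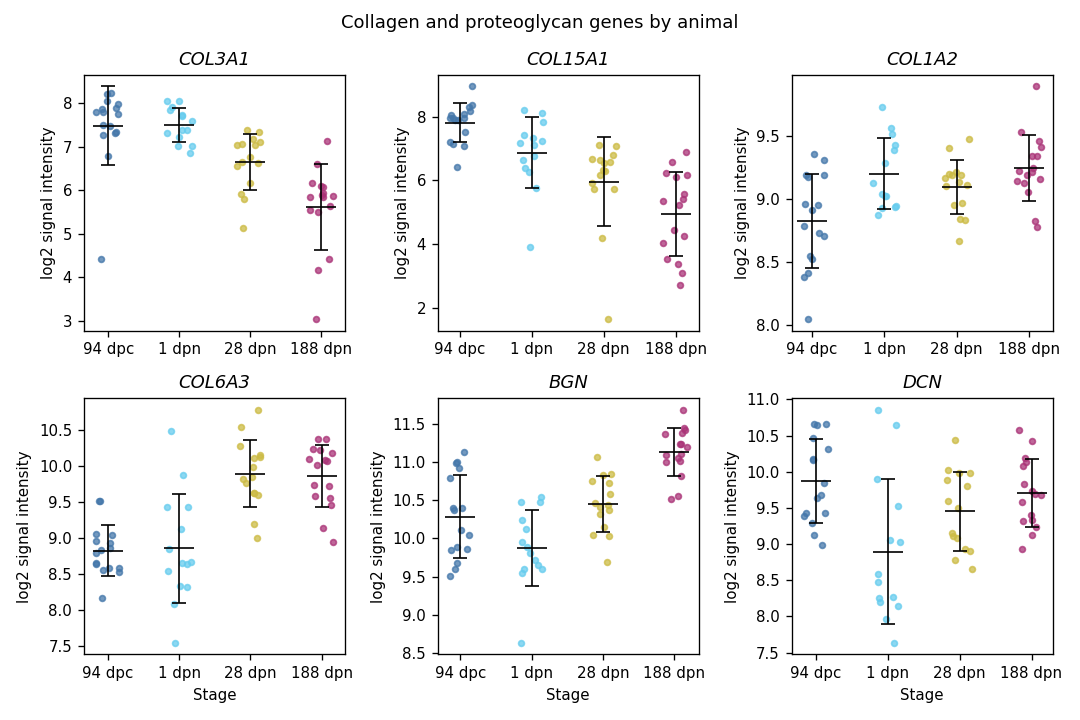
Log2 signal intensity of 4 collagen and 2 proteoglycan genes at the 4 stages, with 1 point per animal (16, 14, 15 and 16 animals) and bars for mean and SD. COL3A1 and COL15A1 declined to stage means of 5.62 and 4.94 in the young adult, COL6A3 and BGN rose to 9.86 and 11.13, and DCN spread widely at 1 dpn.

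Of the 5 matrix glycoproteins and proteoglycans on the array, 4 were tested in period I. BGN, DCN, FN1 and SPARC were called lower, against 41.6% of all probe-sets tested, and each of these calls was lost under 1 or more alternatives. LUM, lumican, was not tested. Its stage means, all below the array median, were highest at 1 dpn, at 5.70 (SD 1.17), 6.07 (SD 1.28), 4.64 (SD 1.77) and 5.60 (SD 0.90). BGN, biglycan, a small proteoglycan that binds collagen and TGF-beta, ran from 9.51 to 11.12 around 10.24 at 94 dpc, from 8.64 to 10.54 around 9.85 at 1 dpn, from 9.69 to 11.06 around 10.43 at 28 dpn and from 10.52 to 11.68 around 11.14 at 188 dpn. The young adults were highest. BGN was called higher in period II (0.57, SE 0.16, q = 0.000374), period III (0.68, SE 0.12, q = 1.12e-05) and net (0.85, SE 0.15, q = 6.67e-07). Its fall in period I (-0.41, SE 0.18, q = 0.0109) lost its call under both other scalings and, at -0.38, without the least correlated array of each stage.

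DCN, decorin, a proteoglycan that spaces collagen fibrils, ran from 8.99 to 10.67 around 9.76 at 94 dpc, from 7.64 to 10.85 around 8.53 at 1 dpn, from 8.66 to 10.43 around 9.50 at 28 dpn and from 8.94 to 10.58 around 9.69 at 188 dpn. The newborns held both the lowest and the highest values. The highest came from the least correlated array of that stage, which also had outlying 3' minus 5' values, and the next highest was a fetus at 10.67. DCN was called lower in period I (-0.98, SE 0.28, q = 0.000584), where the average of its probe-sets, at -0.61, did not pass the filters and was not tested. Its changes of 0.56 (SE 0.28) in period II, 0.25 (SE 0.18) in period III and -0.16 (SE 0.18) net did not pass. SPARC, a glycoprotein that binds collagen and calcium and regulates matrix assembly, ran from 12.58 to 13.57 around 13.02 at 94 dpc, from 11.90 to 13.49 around 12.50 at 1 dpn, from 13.03 to 13.95 around 13.65 at 28 dpn and from 12.20 to 13.56 around 12.94 at 188 dpn. SPARC was called higher in period II (0.91, SE 0.15, q = 5.47e-07) and lower in period III (-0.73, SE 0.11, q = 1.18e-06), and its net change of -0.16 (SE 0.12) did not pass. Its fall in period I (-0.34, SE 0.15, q = 0.0089) lost its call with array medians subtracted and turned to 0.09, not called, when its probe-sets were averaged.

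FN1, fibronectin, was bright at all stages, with stage means of 15.36 (SD 0.26), 15.15 (SD 0.21), 15.44 (SD 0.17) and 15.29 (SD 0.16). Its fall in period I (-0.21, SE 0.09, q = 0.0094) turned to 0.05 after quantile normalization and to 0.32, not called, when its probe-sets were averaged, and the SD filter kept it out of the other comparisons. The 3 probe-sets of FN1 above the filter in some comparison did not move together. One was called higher in period I (0.57) and lower in period II (-2.50), and another lower in period III (-0.86) and net (-0.69).

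The proteases and their inhibitors changed gene by gene. MMP14, a membrane-bound collagenase that also activates MMP2, ran from 7.33 to 9.11 around 8.43 at 94 dpc, from 7.01 to 8.94 around 8.22 at 1 dpn, from 8.56 to 9.80 around 9.22 at 28 dpn and from 7.72 to 9.42 around 8.45 at 188 dpn. MMP14 was highest at 28 dpn, with calls of 0.96 (SE 0.17, q = 2.72e-06) in period II and -0.59 (SE 0.15, q = 0.000619) in period III. Its changes of -0.27 (SE 0.20) in period I and 0.10 (SE 0.18) net did not pass. MMP2, a gelatinase, had stage means of 8.31 (SD 0.36), 8.05 (SD 0.47), 7.48 (SD 0.44) and 7.51 (SD 0.44). It was called lower in period II (-0.57, SE 0.16, q = 0.00057) and net (-0.80, SE 0.14, q = 4.19e-07), and both calls were lost under both other scalings with the direction kept. MMP1, MMP3, MMP9, MMP13 and MMP20 lay below the array median.

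TIMP2, which inhibits MMPs and also takes part in the activation of MMP2 by MMP14, ran from 7.09 to 9.38 around 8.63 at 94 dpc, from 8.60 to 9.99 around 9.14 at 1 dpn, from 9.24 to 10.29 around 9.74 at 28 dpn and from 8.62 to 9.99 around 9.20 at 188 dpn. It was called higher in period I (0.64, SE 0.16, q = 0.000176), period II (0.57, SE 0.13, q = 4.37e-05) and net (0.65, SE 0.15, q = 1.39e-05) and lower in period III (-0.55, SE 0.11, q = 5.52e-05). A second probe-set of TIMP2 was called higher in periods II and III and net, with 0.29 in period III, and had a change of -0.51 in period I that did not pass. The direction of TIMP2 thus differed between the 2 probe-sets in periods I and III, and averaging the probe-sets of TIMP2 ended its calls there. The averaged change was 0.06 in period I, and -0.13 in period III, where the average did not pass the filters and was not tested. TIMP3, an inhibitor held in the matrix, had its lowest mean at 28 dpn, with stage means of 8.07 (SD 0.42), 7.92 (SD 0.47), 6.72 (SD 0.59) and 7.35 (SD 0.26). TIMP3 was called lower in period II (-1.20, SE 0.19, q = 5.15e-07) and net (-0.72, SE 0.12, q = 2.7e-07) and higher in period III (0.62, SE 0.16, q = 0.000484), with its calls in periods II and III resting on a filter passed at 1 dpn or 188 dpn alone, and the net call lost under both other scalings. A second probe-set of TIMP3, with a mean of 7.49 over all arrays against 7.51, was called lower in period II (-0.93) and net (-0.42), and had changes of 0.33 in period I, against -0.15 (SE 0.16) for the first, and 0.19 in period III that did not pass. With the probe-sets of TIMP3 averaged, periods II and III and the net change came to -0.91, 0.46 and -0.53 and were not tested, because the average did not pass the filters. TIMP1, an inhibitor induced in inflamed and scarred liver, was called only in the net change (0.42, SE 0.16, q = 0.0013), and 1 newborn reached 10.84 against a median of 8.36 at 1 dpn.

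**Figure D5:**
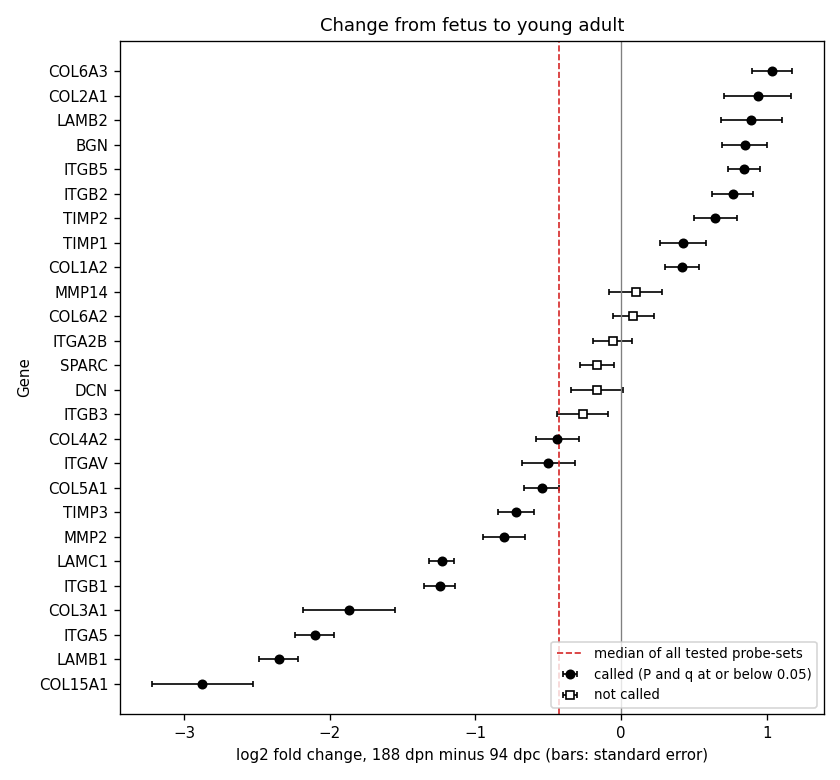
Log2 fold change from 94 dpc to 188 dpn of the 26 genes tested in this comparison, with standard errors as bars; filled circles passed P and q at or below 0.05 and open squares did not, and the dashed line marks the median of all tested probe-sets at -0.43. LAMB1, ITGA5, ITGB1 and LAMC1 lay left of that line and COL6A3, LAMB2, BGN and ITGB5 right of 0, while COL4A2, ITGAV and COL5A1 lay close to the line.

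Set against the median of all tested probe-sets, the net change was -2.45 for COL15A1, -1.93 for LAMB1, -1.68 for ITGA5, -1.44 for COL3A1, -0.82 for ITGB1 and -0.80 for LAMC1. On the other side it was 1.46 for COL6A3, 1.37 for COL2A1, 1.32 for LAMB2, 1.28 for BGN, 1.27 for ITGB5, 1.20 for ITGB2, 1.07 for TIMP2, 0.85 for TIMP1 and 0.85 for COL1A2. COL15A1, COL3A1, COL2A1 and LAMB2 passed the filter through 1 stage alone, and with the array median as floor the net change of LAMB2 before this subtraction was 0.34 in place of 0.89. The net change of COL2A1 before the subtraction was as low as 0.24 under the alternatives, in place of 0.94. For COL4A2 (-0.01), ITGAV (-0.07) and COL5A1 (-0.12) little was left.

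Genes whose products join or act together were also compared from animal to animal within a stage. The pairs with both genes on the array were COL5A1 with COL5A2, LAMB1 with LAMC1, MMP2 with TIMP2, and LUM with DCN, which gave 16 tests. In permutation tests with 100000 resamples, 0 of the 16 passed at an adjusted p of 0.05 by Pearson's r or by Spearman's rho, and at an unadjusted p below 0.05 there was 1 by each. That of LUM with DCN at 1 dpn had the lowest unadjusted p (r = 0.60, p = 0.0233, adjusted p = 0.373, rho = 0.29, p = 0.319, adjusted p = 0.567), and r was 0.06 without the 2 newborns farthest from the median of LUM. LAMB1 and LAMC1 had r = 0.32, 0.31, 0.41 and -0.31 in order of age, with rho of 0.31, 0.26, 0.33 and -0.31, permutation p of 0.23, 0.279, 0.135 and 0.242 for r, and adjusted p of 0.43, 0.446, 0.43 and 0.43. Without the 2 animals farthest from the median of LAMB1, r was -0.02, -0.40, 0.30 and -0.26. COL5A2 and LUM were below the array median, so their pairs rest on weak signals.

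Enzymes that process and cross-link collagen were counted from a list of 30, with 12 on the array. In period I 3 of 9 tested were called higher and 3 lower, in period II 4 and 3 of 10, in period III 2 and 7 of 11 and net 2 and 5 of 9. Over all probe-sets tested, 26.1% were called higher and 41.6% lower in period I and 29% and 41.4% in period II. The shares were 18.3% and 35.7% in period III and 28.6% and 55% net. A list count near these shares does not set a list apart, here and for the lists that follow. FKBP10, a prolyl isomerase of the collagen-folding machinery, was called lower in period I (-1.47) and net (-1.83). SERPINH1, the collagen chaperone HSP47, was called higher in period I (0.65) and lower in periods II (-0.78) and III (-0.77), and PLOD3, a lysyl hydroxylase, followed the same order with 1.09, -0.63 and -0.39. LOXL1, a cross-linking oxidase, was called higher in period II (1.498), and LOXL4, of the same family, lower in period III (-1.4995).

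Other matrix proteins came from a list of 45, with 21 on the array. In period I 1 of 15 tested was called higher and 7 lower, in period II 10 of 14 higher and 1 lower, in period III 4 and 6 of 13 and net 7 and 6 of 15. The 1 called higher in period I was MGP, an inhibitor of calcification (2.18), which was called higher again in period II (1.24) and net (3.67). FBLN1, a fibulin of elastic fibres and basement membranes, was called higher in period II (2.41), period III (0.58) and net (2.91). POSTN, a matricellular protein of growing tissue, was the 1 called lower in period II (-0.91), and it was also called lower in period I (-0.74), period III (-0.59) and net (-2.24). NID2, a linker of laminin and type IV collagen, was called lower in period I (-1.54), higher in period II (0.79) and lower in period III (-0.91).

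On the inner side of the integrins, adhesion proteins came from a list of 27, with 11 on the array. In period I 0 of 10 tested were called higher and 4 lower, in period II 4 and 3 of 10, in period III 1 and 3 of 8 and net 2 and 6 of 9. VCL (vinculin, -0.87), ACTN1 (alpha-actinin, -0.67), CRK (-0.61) and LIMS2 (-0.38) were called lower in period I, and VCL (0.61) and ACTN1 (0.81) were called higher in period II. FHL2, a LIM protein of adhesions and nucleus, was called higher in period II (1.28) and net (1.66). Of 22 genes of TGF-beta signalling, the main driver of collagen production in stellate cells, 10 were on the array. In period I 2 of 6 tested were called higher and 3 lower, in period II 2 and 2 of 7, in period III 0 and 2 of 7 and net 1 and 4 of 7. The receptor TGFBR1 was called lower in period I (-1.23) and net (-1.97), and the ligand TGFB1 higher in periods I (0.39) and II (0.39) and net (0.48) and lower in period III (-0.30).

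Markers of endothelial cells, which make laminins and type IV collagen, were called higher and lower in 2 and 2 of 9 tested in period I, 3 and 6 of 11 in period II, 2 and 3 of 9 in period III and 3 and 6 of 9 net. In period II KDR (-1.497) and TIE1 (-2.53) were called lower and CDH5 (1.45) higher, so they did not move as 1 list. The summed signal of the 11 on the array lay between 5404 and 11011, 7564 and 10779, 9022 and 12381, and 6651 and 10736 at the 4 stages, with 8 or 9 above the array median. Their part in the falls of LAMB1, LAMC1 and COL15A1 was not tested.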

How the data were processed

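Liver RNA of 61 LP offspring was measured on Affymetrix GeneChip Porcine Genome Arrays. The authors deposited linear signal intensity values, scaled to a common trimmed mean. GCOS 1.1.1 is the tool in the submitters' processing notes. The GC-RMA values of the paper were not used here, and the sex, mother and weight of its model are not in the labels. Intensities were taken to log2, and stage was the only term of the limma fits (limma 3.58.1, R 4.3.3, two-sided). Storey q covered all tested probe-sets (lambda 0.05 to 0.95 by 0.05, smoothed by a spline of 3 degrees of freedom). Of 24123 probe-sets, 124 controls were left out. Of the others, 10069 carried 1 symbol, 198 several and 13732 none, in a platform annotation that can be old. The RefSeq table of the pig held all 47 symbols. Precision is limited by the number of arrays.

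The genes, the lists of related genes and cell type markers, and the tests were chosen with earlier results of these data known. Named are genes with a stage mean above the array median, a core set whatever its level, and some of the called genes of the lists. A limit of 4 called genes with the largest change was planned per list and was exceeded for collagen processing and for adhesion proteins. Alternatives were Benjamini-Hochberg adjustment, no intensity filter (with and without the SD filter), quantile normalization, subtraction of array medians, a pseudocount of 16, the array median as floor, 1 fit over all 4 stages, array weights (statmod 1.5.0), moderation with trend and robust, averaging of a gene's probe-sets, and fits that left out the least correlated array of each stage or 9 arrays whose 3' minus 5' values were outlying (over 3 scaled median absolute deviations). The fit was tested on simulated data. Permutation tests and figures used Python 3.11.15, NumPy 2.4.6 and matplotlib 3.10.9.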

Additional observations from a re-analysis of the deposited data

How the results depend on the processing

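Of 69 calls of these genes over the 4 comparisons, 38 held under all 13 alternatives, 29 were lost under 1 or more and 6 turned direction under 1 or more. Moderation with trend and robust and the pseudocount of 16 lost 0 calls, array weights and all 4 stages in 1 fit lost 1 each, the array median as floor lost 2, and Benjamini-Hochberg adjustment lost 4. Quantile normalization lost 11 and turned 2, subtraction of array medians lost 13 and turned 3, and averaging all probe-sets of a gene lost 16 and turned 3. The changes that turned were FN1 in period I (0.0496 after quantile normalization, 0.32 with the mean of probe-sets), SPARC in period I (0.0948, mean of probe-sets), COL1A2 net (-0.0656, mean of probe-sets), COL4A2 net (0.21) and COL5A1 net (0.11) with array medians subtracted, and ITGAV net (0.0700 after quantile normalization, 0.15 with array medians subtracted). The cause was not tested. Of the 16 calls lost by averaging, 12 were lost because the average did not pass the filters and was not tested, among them COL2A1 in period I (0.52) and net (0.51). COL1A2 in period I (0.22) and SPARC in period III (-0.31) were tested and not called. The fit over all 4 stages ended the call of LAMB2 in period III.

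Of the counts, those called higher in period I fell from 4 to 1 with the mean of probe-sets, and those lower from 12 to 7, or to 6 with array medians subtracted. In period II the higher rose from 10 to 16 with array medians subtracted, and the lower from 6 to 13 without the intensity filter, with or without the SD filter. In period III the higher rose from 5 to 8 after quantile normalization and to 9 with array medians subtracted. Net, the higher rose from 9 to 16 with array medians subtracted, while the lower went from 11 to 7 after quantile normalization, 6 with array medians subtracted and 17 without the intensity filter, with or without the SD filter. With neither filter, 33.3% of all probe-sets that are not controls were called lower in period II and 45.8% net, so these lower counts do not set the genes apart. The other counts stayed within 1.5 times the reported ones, and the correlations, recomputed under 3 alternatives (quantile normalization, the floor at the array median, and leaving out each stage's least correlated array), gave 0 passing tests in each.

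Without the least correlated array of each stage, BGN (-0.38) and FN1 (-0.21) in period I and ITGB3 (-0.41) in period III lost their calls, and leaving out the 9 arrays with outlying 3' minus 5' values cost the same calls (-0.40, -0.19 and -0.42) and that of ITGAV in period III (-0.36). No paired analysis was possible because each animal was sampled at 1 stage and the labels identify neither siblings nor litters. Background could not be told from weak signal under the array median, which limits COL3A1, COL15A1, COL2A1, LAMB2 and the 20 genes below it throughout.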

Other observations

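Markers of other cells were counted in the same fits. Over all probe-sets tested, 26.1% were called higher and 41.6% lower in period I and 29% and 41.4% in period II. The shares were 18.3% and 35.7% in period III and 28.6% and 55% net. Neutrophil and granulopoiesis markers were called lower in 3 of 7 tested in period I, 6 of 6 in period II and 7 of 7 net, with 0 higher, and in period III 0 of 3 were called. Their summed signal had stage medians of 12760, 4935, 1180 and 962. Erythroid markers were called lower in 5 of 6 tested in period I and 0 higher, 3 higher and 1 lower of 5 in period II, 1 higher of 5 in period III, and 6 lower of 7 net. Cholangiocyte markers were called higher and lower in 1 and 0 of 4 tested in period I, 1 and 3 of 4 in period II, 0 and 3 of 4 in period III and 0 and 2 of 4 net. Hepatocyte markers were called higher and lower in 7 and 1 of 13, 1 and 8 of 11, 2 and 1 of 8 and 4 and 6 of 13 in the same order, and megakaryocyte and platelet markers were called lower in 1 of 3 in period III and 4 of 4 net, with 0 higher. Leukocyte and macrophage markers were called higher and lower in 2 and 1 of 9 in period I and 10 and 1 of 12 net.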
